A study of Mus musculus with 14 samples.

Results

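The binding of phosphorylated SMAD1, SMAD5 and SMAD9 (pSMAD1/5/9) that remained in unstimulated muscle stem cells (MuSCs) was compared with the binding of SMAD4 in the same condition. The consensus list of control cells held 949 pSMAD1/5/9 peaks and their SMAD4 list held 8577 peaks. These 9526 regions rest on 4 of the 14 samples of the series, with 2 biological replicates for each antibody. A pSMAD1/5/9 peak was counted as bound with SMAD4 when both regions shared at least 1 bp. By this rule, 797 pSMAD1/5/9 peaks had SMAD4 and 152 did not, while 865 SMAD4 peaks had pSMAD1/5/9 and 7712 did not.

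The cells came from female mice, 9 weeks old, of the genotype C57BL/6N(Tg(Pax7-EGFP)Tajb), in which a *Pax7* reporter transgene marks MuSCs with GFP. Muscle cells were cultured, sorted for GFP and expanded, so the profiles describe activated, cultured MuSCs and not quiescent cells in tissue. All cells were then starved of serum for 6 h with 200 ng/mL of soluble BMPR1A, a decoy receptor that binds BMP ligands. Control cells next received the vehicle, which was 4 mM HCl with 0.1% BSA, for 1 h. Stimulated cells received 100 ng/mL BMP6 instead, and their peak lists are used here only as a further readout at the sites of control cells. CUT&Tag, in which an antibody directs a transposase to cut and tag nearby DNA, used 100000 cells for each condition, which had been fixed lightly and frozen. The labels name biol rep 1 and biol rep 2, each with every antibody in both conditions. The 2 libraries that had no primary antibody, both of biol rep 1, were not used here, so no background level was subtracted from any value.

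BMP receptors phosphorylate SMAD1, SMAD5 and SMAD9, which enter the nucleus in complexes with SMAD4. TGF-β and activin receptors phosphorylate SMAD2 and SMAD3, which use the same SMAD4. A SMAD4 site can therefore carry either branch of the pathway, and in MuSCs both branches restrain differentiation into muscle fibres. The comparison addresses which SMAD4 sites still held BMP-type SMADs after starvation with a decoy receptor.

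The sequences below show the DNA under the strongest sites of each kind. Each is the window of 200 bp around the peak's summit on the plus strand of GRCm39. Capitals mark matches to one of 8 motifs searched on both strands, which were the SMAD palindrome GTCTAGAC, the SMAD1/5-type GC elements GGCGCC and GGAGCC, the E-box CAGCTG of myogenic bHLH factors, the AP-1 site TGACTCA, the RBPJ sites ATGGGAA and GTGGGAA, the TEAD site GGAATG and the GC box GGGCGG. The AP-1 site was also accepted as TGAGTCA, its reverse complement, and matches of different motifs could share bases. The first set holds pSMAD1/5/9 with SMAD4, as the 3 strongest that the selection stated with the methods admits.
Irf2bpl, chr12:86873590-86873789: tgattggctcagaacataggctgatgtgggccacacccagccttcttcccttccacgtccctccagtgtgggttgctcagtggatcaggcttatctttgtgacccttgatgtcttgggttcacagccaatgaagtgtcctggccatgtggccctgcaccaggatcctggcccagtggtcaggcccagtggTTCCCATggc
Nes, chr3:87890344-87890543: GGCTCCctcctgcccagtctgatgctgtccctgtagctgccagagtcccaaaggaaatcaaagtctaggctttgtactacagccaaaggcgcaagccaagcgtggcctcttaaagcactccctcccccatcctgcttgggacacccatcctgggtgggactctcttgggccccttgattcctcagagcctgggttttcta
Crip1, chr12:113111542-113111741: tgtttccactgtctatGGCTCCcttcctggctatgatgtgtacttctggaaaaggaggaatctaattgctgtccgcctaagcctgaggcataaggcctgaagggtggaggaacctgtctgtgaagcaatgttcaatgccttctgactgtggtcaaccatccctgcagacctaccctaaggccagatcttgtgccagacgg
The second set holds pSMAD1/5/9 peaks without SMAD4, chosen in the same way.
Irf2bpl, chr12:86935197-86935396: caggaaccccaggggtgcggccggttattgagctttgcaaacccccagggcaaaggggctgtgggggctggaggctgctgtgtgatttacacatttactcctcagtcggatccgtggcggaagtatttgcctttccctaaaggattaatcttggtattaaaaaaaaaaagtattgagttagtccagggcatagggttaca
Smarcd3, chr5:24806435-24806634: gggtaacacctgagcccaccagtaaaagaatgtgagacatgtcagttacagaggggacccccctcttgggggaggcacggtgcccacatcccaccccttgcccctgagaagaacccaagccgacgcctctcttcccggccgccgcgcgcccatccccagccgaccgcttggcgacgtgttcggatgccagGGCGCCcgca
Clcn5, chrX:7184906-7185105: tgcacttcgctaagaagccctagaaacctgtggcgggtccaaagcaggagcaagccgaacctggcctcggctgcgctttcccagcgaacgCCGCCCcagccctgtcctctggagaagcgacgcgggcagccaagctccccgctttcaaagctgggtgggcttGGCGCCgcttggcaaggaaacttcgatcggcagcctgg
The third set holds SMAD4 peaks without pSMAD1/5/9, again the strongest of their kind.
Arrdc3, chr13:81033705-81033904: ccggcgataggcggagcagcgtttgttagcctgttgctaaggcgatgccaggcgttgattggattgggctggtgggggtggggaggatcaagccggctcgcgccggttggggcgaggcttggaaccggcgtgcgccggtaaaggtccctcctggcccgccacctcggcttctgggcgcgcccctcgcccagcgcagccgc
Loxl1, chr9:58203128-58203327: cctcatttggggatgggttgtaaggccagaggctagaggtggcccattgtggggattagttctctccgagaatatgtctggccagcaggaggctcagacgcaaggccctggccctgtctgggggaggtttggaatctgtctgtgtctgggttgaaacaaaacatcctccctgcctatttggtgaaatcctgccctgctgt
Tmem121, chr12:113226227-113226426: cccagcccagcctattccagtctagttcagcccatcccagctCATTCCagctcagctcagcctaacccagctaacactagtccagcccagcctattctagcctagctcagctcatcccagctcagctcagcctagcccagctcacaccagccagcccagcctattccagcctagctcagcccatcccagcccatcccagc
The site named for *Irf2bpl* in the first set was intergenic, 57.9 kb downstream of the start of *Irf2bpl*, which encodes a transcriptional regulator. Its window held 1 match, to the RBPJ site. The window 12044 bp downstream of the start of *Nes*, the gene of the intermediate filament nestin, and the window 1489 bp downstream of the start of *Crip1*, which encodes a LIM domain protein, each held 1 GGAGCC. In the second set the *Irf2bpl* window, 3725 bp upstream of the start, held none of the motifs. The windows within 1 kb of the starts of *Smarcd3*, a subunit of the SWI/SNF chromatin remodelling complex, and *Clcn5*, a chloride transporter, each held 1 GGCGCC, and that of *Clcn5* also held 1 GC box. In the third set the windows near *Arrdc3*, an arrestin-related adaptor, and in an intron of *Loxl1*, a lysyl oxidase that crosslinks elastin, held none. The window nearest to *Tmem121*, 76.8 kb from its start, is a run of similar short repeats and held 1 TEAD match. None of the 9 windows held the SMAD palindrome or the E-box. Across all vehicle H3K27ac peaks, 17.2% of such windows held GGAGCC, 3.62% held GGCGCC, 8.49% an RBPJ site, 12.3% a TEAD site and 11.4% a GC box.

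The lists give no read counts, and the depth behind each peak is unknown. Its signal is a score of the peak caller without a stated unit, so peaks were compared by their rank within one list, and levels were never compared between antibodies. For every peak, both replicate values added up to its signal. Active chromatin, read as vehicle H3K27ac within 2 kb of the start, was present at 8 of 8 genes that mark MuSCs, among them *Pax7*, *Myf5* and *Myod1*. It was present at 1 of 4 marker genes of fibro-adipogenic cells (*Col1a1*), 0 of 3 of endothelial cells, 1 of 3 of immune cells (*Cd68*) and 2 of 3 of mature fibres (*Ckm* and *Acta1*). In these bulk profiles, fewer bound cells and less binding per cell cannot be told apart.

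Most residual pSMAD1/5/9 sites lay on SMAD4. The share was 84.0% of 949 peaks (95% Wilson interval 81.5 to 86.2%), whereas 10.1% of 8577 SMAD4 peaks (9.47 to 10.7%) carried pSMAD1/5/9. The second share is limited by the lengths of the lists. Of the 865 matched SMAD4 peaks, 857 overlapped 1 pSMAD1/5/9 peak, so 949 peaks could match only a small part of 8577. The smallest overlap of a matched pSMAD1/5/9 peak was 130 bp and the median was 554 bp, while the closest unmatched pSMAD1/5/9 peak lay 10 bp from a SMAD4 peak. The share depends on the rule, since 653 pSMAD1/5/9 peaks (68.8%) had a partner when 50% of both peaks had to overlap and 677 (71.3%) when summit windows of 200 bp had to. In matched pairs both summits were a median of 78 bp apart, and in 477 pairs, 59.9%, they were within 100 bp. Of the matched pSMAD1/5/9 peaks, 724 covered 1 SMAD4 peak and 73 covered more than 1. The 152 peaks without SMAD4 were mostly far from any, with a median gap of 23214 bp, although 21 lay within 1 kb of a SMAD4 peak and 71 within 20 kb. The 7712 SMAD4 peaks without pSMAD1/5/9 were a median of 400.1 kb from the nearest pSMAD1/5/9 peak, and 971 of them, 12.6%, were within 20 kb of one.

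The overlap followed the strength of the peaks in both lists. Among the strongest decile of pSMAD1/5/9 peaks, 94 of 95 had SMAD4, or 98.9% (94.3 to 99.8%). The share was 90.5% in the fifth decile and 64.9% (54.8 to 73.8%) in the weakest decile, 61 of 94 peaks. For SMAD4 the share with pSMAD1/5/9 was 35.9% (32.8 to 39.2%) in the strongest decile and 1.28% (0.718 to 2.28%) in the weakest. Even in the strongest decile of SMAD4 peaks, 550 of 858 had no listed pSMAD1/5/9 peak.

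**Figure D1:**
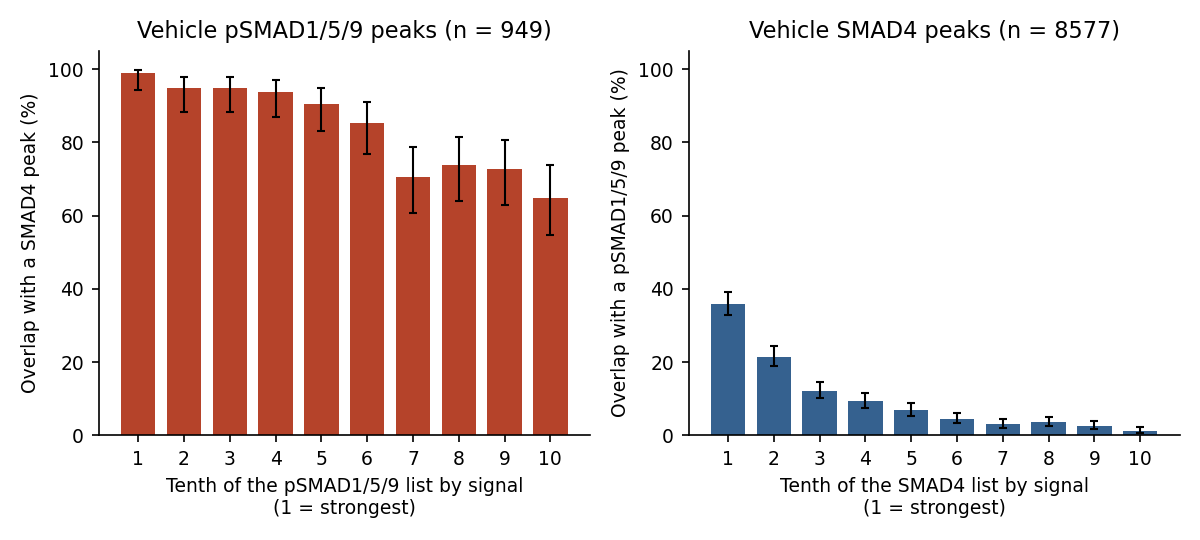
Share of peaks that overlap a peak of the other antibody (y axis, %) in each decile of the vehicle list by signal (x axis, 1 is strongest). The left panel shows 949 pSMAD1/5/9 peaks and the right panel 8577 SMAD4 peaks, with bars as shares and error bars as 95% Wilson intervals. The share runs from 98.9% to 64.9% for pSMAD1/5/9 and from 35.9% to 1.28% for SMAD4.

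Ranks differed in the same way. The 797 pSMAD1/5/9 peaks with SMAD4 had a median rank of 417 of 949, and the 152 without had a median rank of 705. Of the former, 94 (11.8%) were among the strongest 10% of the list, and of the latter 1 (0.658%). This difference passed Fisher's exact test, with an odds ratio of 20.2 and a two-sided adjusted p of 4.1e-06. It rests on a single peak without SMAD4, and the odds ratio was 9.91 when peaks were ranked by the first replicate column alone. It passed with smaller odds ratios of 3.83 when an overlap of 50% of both peaks was required and of 2.11 when summit windows were matched, and did not pass at a stricter irreproducible discovery rate (IDR) of 0.01, applied to both lists, which left 11 peaks without SMAD4. The 865 SMAD4 peaks with pSMAD1/5/9 had a median rank of 1396 of 8577, against 4603.5 for those without. In the strongest 10% of SMAD4 peaks were 308 (35.6%) of the former and 550 (7.13%) of the latter, an odds ratio of 7.20 with an adjusted p of 1.3e-106. Every p of this kind is adjusted by Benjamini-Hochberg over 34 comparisons and treats peaks as units, which are not independent replicates, so it describes the lists of 2 replicates and not further cultures.

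Both replicates gave this order. In the first replicate column the median signal of pSMAD1/5/9 peaks was 18453 with SMAD4 and 12962 without, and in the second it was 15209 and 10400. The ranges overlapped, since the strongest peak without SMAD4 reached 35080 and the weakest with SMAD4 8813 in the first column. For SMAD4 peaks the medians were 12430 with and 5529 without pSMAD1/5/9 in the first column, and 7627 and 3551 in the second. Spearman's correlation between both columns was 0.955 for pSMAD1/5/9 peaks with SMAD4 and 0.914 for those without, and 0.828 and 0.739 for the SMAD4 groups. These are correlations across peaks of shared libraries, among peaks kept for their reproducibility. Width moved with the groups, with a median of 720 bp for pSMAD1/5/9 peaks with SMAD4 and 600 bp for those without, and 660 and 450 bp for SMAD4. The part of width in the overlap was examined only by matching summit windows of 200 bp, where 7.92% of SMAD4 peaks had a partner.

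**Figure D2:**
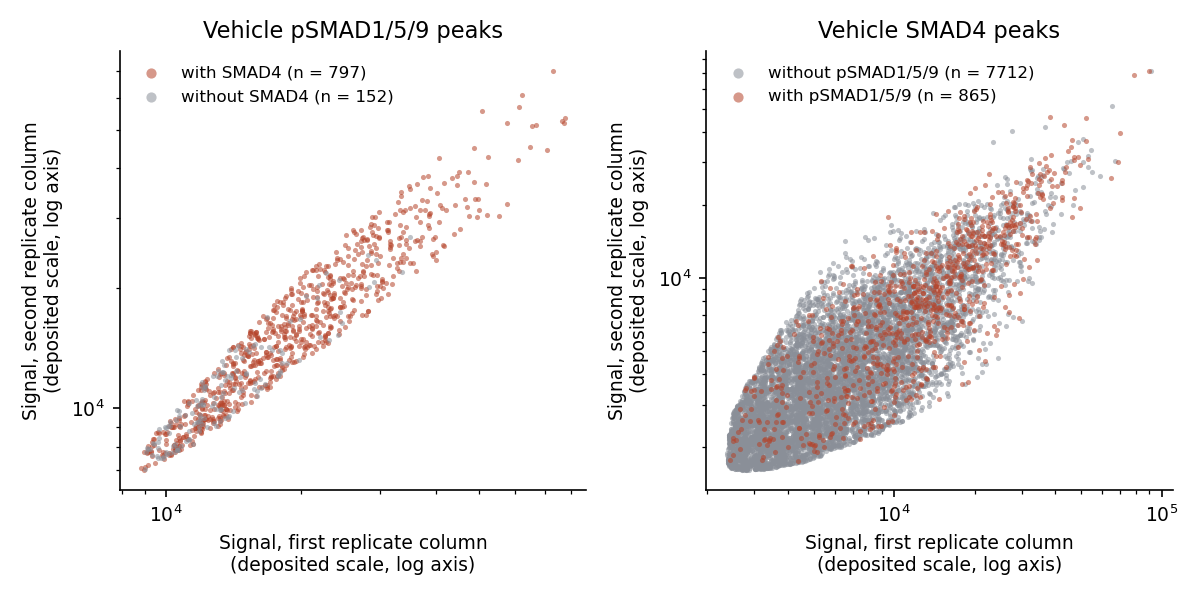
Signal of each vehicle peak in the first (x axis) and second (y axis) replicate column, on log axes in the deposited scale. Red points have a peak of the other antibody and grey points have none, with 797 and 152 in the pSMAD1/5/9 panel and 865 and 7712 in the SMAD4 panel. Red points gather toward high values in both columns, and the groups overlap over most of the range.

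The strength of one antibody's peak was related to that of its partner only in part. Over 797 matched pairs, Spearman's correlation of both signals was 0.587, as a description of peaks that share chromatin and cells.

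The strongest residual sites were near genes of several kinds. The first was in an intron of *Cxxc5*, which encodes a zinc finger protein known as a BMP-responsive regulator of Wnt signaling. Its replicate signals were 73230 and 70313, and its SMAD4 partner ranked 7 with 52347 and 45897. The second lay at the start of *Skil*, which encodes SnoN, a corepressor that limits SMAD activity. This peak, chr3:31148121-31149840, had signals of 77740 and 53519 for pSMAD1/5/9 and also ranked 2 among SMAD4 peaks, with 89681 and 71304. The following 8 sites were nearest to *Irf2bpl*, *Nes*, *Crip1*, *Lmna*, *Gapdh*, *Slc6a6*, *Cirbp* and *Gm5148*. *Lmna* encodes lamins A and C of the nuclear envelope, *Slc6a6* the taurine transporter and *Cirbp* an RNA-binding protein induced by cold. The name is only that of the nearest start. The site of *Slc6a6* was 64.2 kb upstream of it, that of *Gm5148* 151.1 kb away, and that of *Gapdh* lay 8661 bp downstream of its start in an intron of another gene. The SMAD4 partners of these 10 sites ranked from 2 to 339, and all 10 sites were in both BMP6 lists.

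The residual sites without SMAD4 began lower in the list. The strongest ranked 84, upstream of *Irf2bpl*, with signals of 35080 and 26964. It was a different site from the third strongest pSMAD1/5/9 peak, which is nearest to the same gene and had SMAD4. Ranks 124, 146, 151 and 173 were at the starts of *Smarcd3*, *Eef1a1*, *Clcn5* and *Naa16*. *Eef1a1* encodes the translation elongation factor that every cell uses, and *Naa16* a subunit of an amino-terminal acetyltransferase. The peak at *Eef1a1*, chr9:78388721-78389680, had its summit 10 bp upstream of the start and signals of 29460 and 23529. Sites in introns of *Igf2r*, the receptor that clears IGF2, and of *Olfml2b* followed, with one at the start of *C1galt1c1*, a chaperone of O-glycosylation. The last of the 10 strongest were an intronic site whose nearest start was that of *Pitpnb*, 102.3 kb away, and an intergenic one 8518 bp upstream of *Plec*, which encodes the cytoskeletal linker plectin. All 10 were in the BMP6 pSMAD1/5/9 list, and 9 were in the BMP6 SMAD4 list, the exception being *C1galt1c1*.

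The X chromosome held 25 pSMAD1/5/9 peaks, of which 14 had SMAD4. That share of 56.0% (37.1 to 73.3%) lies below the interval of the autosomes, where it was 84.7% of 924 peaks (82.3 to 86.9%). *Clcn5* and *C1galt1c1* are among the 11 X-linked peaks without SMAD4. SMAD4 peaks on the X carried pSMAD1/5/9 in 15 of 262 cases, or 5.73% (3.50 to 9.23%), against 10.2% of 8315 on autosomes (9.59 to 10.9%). These shares were compared by their intervals only.

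SMAD4 peaks without pSMAD1/5/9 included the strongest SMAD4 peak of all. It reached into the 2 kb around the start of *Arrdc3*, with its summit 2351 bp downstream and signals of 91668 and 71688. The following were an intron of *Loxl1* (rank 4), and intergenic sites nearest to *Mok* (8), *Tmem121* (11), *Gpr6* (12), *Cimip1* (14) and *Egfl6* (16), which were between 31.5 and 219.9 kb from these starts. Rank 15 was at the start of *Smad7*, the inhibitory SMAD that blocks receptors of both branches. This peak had its summit 88 bp upstream of the start and signals of 48571 and 36389. Ranks 20 and 21 were in an intron of *Arhgap22*, a GTPase-activating protein, and an exon of *Mttp*, the microsomal lipid transfer protein. Of these 10 sites, 9 had pSMAD1/5/9 in the BMP6 list, and the site nearest to *Gpr6* had none.

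Location in the genome did not pass the test between the groups. A peak was assigned to a transcription start site (TSS) when any base of it lay within 2 kb of one. This held for 34.5% of pSMAD1/5/9 peaks with SMAD4 (275 of 797) and 34.2% of those without (52 of 152), an odds ratio of 1.01 with an adjusted p of 1 by Fisher's exact test. Introns held 239 of 797 and 42 of 152, exons 5.40 and 5.92%, and intergenic sequence 30.1 and 32.2%. The intervals of the group without SMAD4 are wide, 27.1 to 42.1% for the TSS, and differences within them were not detectable with 152 peaks. For SMAD4, 34.3% of peaks with and 30.8% of peaks without pSMAD1/5/9 were at a TSS, with an odds ratio of 1.17 and an adjusted p of 0.104. Introns held 29.0 and 31.6% of them, intergenic sequence 30.9 and 32.9% and exons 5.78 and 4.67%, and none passed the test. The paper, which used another transcript set, gives higher intronic and lower intergenic shares for peaks of both antibodies. The cause of that discrepancy was not tested. The exon difference between the SMAD4 groups passed when an overlap of 50% of both peaks was required, at 7.04 against 4.59% with an adjusted p of 0.025. The SMAD4 difference at the TSS passed, with an adjusted p of 0.038, when all basic transcripts were used in place of 1 per gene. For pSMAD1/5/9 the stricter IDR in both lists left 11 peaks without SMAD4, of which 8 were at a TSS, against 37 of 130 with, and that difference had the opposite direction and passed at an adjusted p of 0.033. Of these 11 peaks, 7 overlap a SMAD4 peak that fails the stricter IDR, and only 4 lack SMAD4 in the whole list.

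Almost all sites lay in active chromatin. Every one of the 797 pSMAD1/5/9 peaks with SMAD4 overlapped a vehicle H3K27ac peak, and so did 148 of the 152 without (97.4%), with an adjusted p of 0.002. On the autosomes alone this did not pass, at an adjusted p of 0.072. The strongest 10% of H3K27ac peaks covered 83.7% of the former and 70.4% of the latter, an odds ratio of 2.16 with an adjusted p of 8.7e-04. For SMAD4, all 865 peaks with pSMAD1/5/9 and 96.0% of those without overlapped H3K27ac. The strongest 10% of H3K27ac covered 84.7% against 54.1%, an odds ratio of 4.71 with an adjusted p of 2.7e-73. The rank of the peaks moved with these shares. Within the strongest 10% of SMAD4 peaks, 92.9% of 308 with and 76.2% of 550 without pSMAD1/5/9 lay on the strongest H3K27ac, with an adjusted p of 1.4e-09. Within the weaker 50% of pSMAD1/5/9 peaks, the shares were 73.6% with and 68.3% without SMAD4, and the adjusted p was 0.402. The pSMAD1/5/9 difference did not pass either when an overlap of 50% or shared summit windows were required, at adjusted p of 0.230 and 0.215.

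In cells given BMP6, most sites were listed again. Of the pSMAD1/5/9 peaks with SMAD4 in control cells, 89.3% overlapped a BMP6 pSMAD1/5/9 peak and 93.6% a BMP6 SMAD4 peak. Of those without SMAD4, 60.5% and 57.9% did, with odds ratios of 5.46 and 10.6 and adjusted p of 2.2e-15 and 8e-26. The groups were defined by vehicle SMAD4, so the direction of the BMP6 SMAD4 difference largely followed from the grouping. The 152 peaks without SMAD4 split into 68 found in both BMP6 lists, 20 found only in that of SMAD4, 24 only in that of pSMAD1/5/9, and 40 (26.3%, 20.0 to 33.8%) found in neither. Within the weaker 50% of pSMAD1/5/9 peaks the difference remained past the threshold, at 82.5% against 54.8% for BMP6 pSMAD1/5/9 and 88.5% against 51.6% for BMP6 SMAD4. With summit windows in place of the 1 bp overlap, the odds ratios were 3.08 and 5.31 and still passed. Both alternatives keep the grouping by vehicle SMAD4, so the limit on the BMP6 SMAD4 difference holds there too.

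SMAD4 sites behaved likewise. Those with pSMAD1/5/9 in control cells overlapped a BMP6 pSMAD1/5/9 peak in 88.9% of cases and those without in 46.9%, an odds ratio of 9.07 with an adjusted p of 2.8e-135. The latter are 3616 sites at which SMAD4 was listed in control cells and pSMAD1/5/9 was listed only after BMP6. The groups were defined by the antibody that is read here, so a difference in this direction largely followed from the grouping. It describes how often sites were listed again and is no separate result. Within the strongest 10% of SMAD4 peaks the shares were 99.4% and 91.1%, with an adjusted p of 3.1e-07. So among strong SMAD4 sites that lacked pSMAD1/5/9 in control cells, 501 of 550 had it in the BMP6 list. A BMP6 SMAD4 peak was found at 94.0% with and 67.0% without pSMAD1/5/9, but within the strongest 10% of SMAD4 peaks it was found at 308 of 308 and 542 of 550, which did not pass at an adjusted p of 0.225. Altogether 2058 SMAD4 peaks without pSMAD1/5/9, 26.7%, were in neither BMP6 list.

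**Figure D3:**
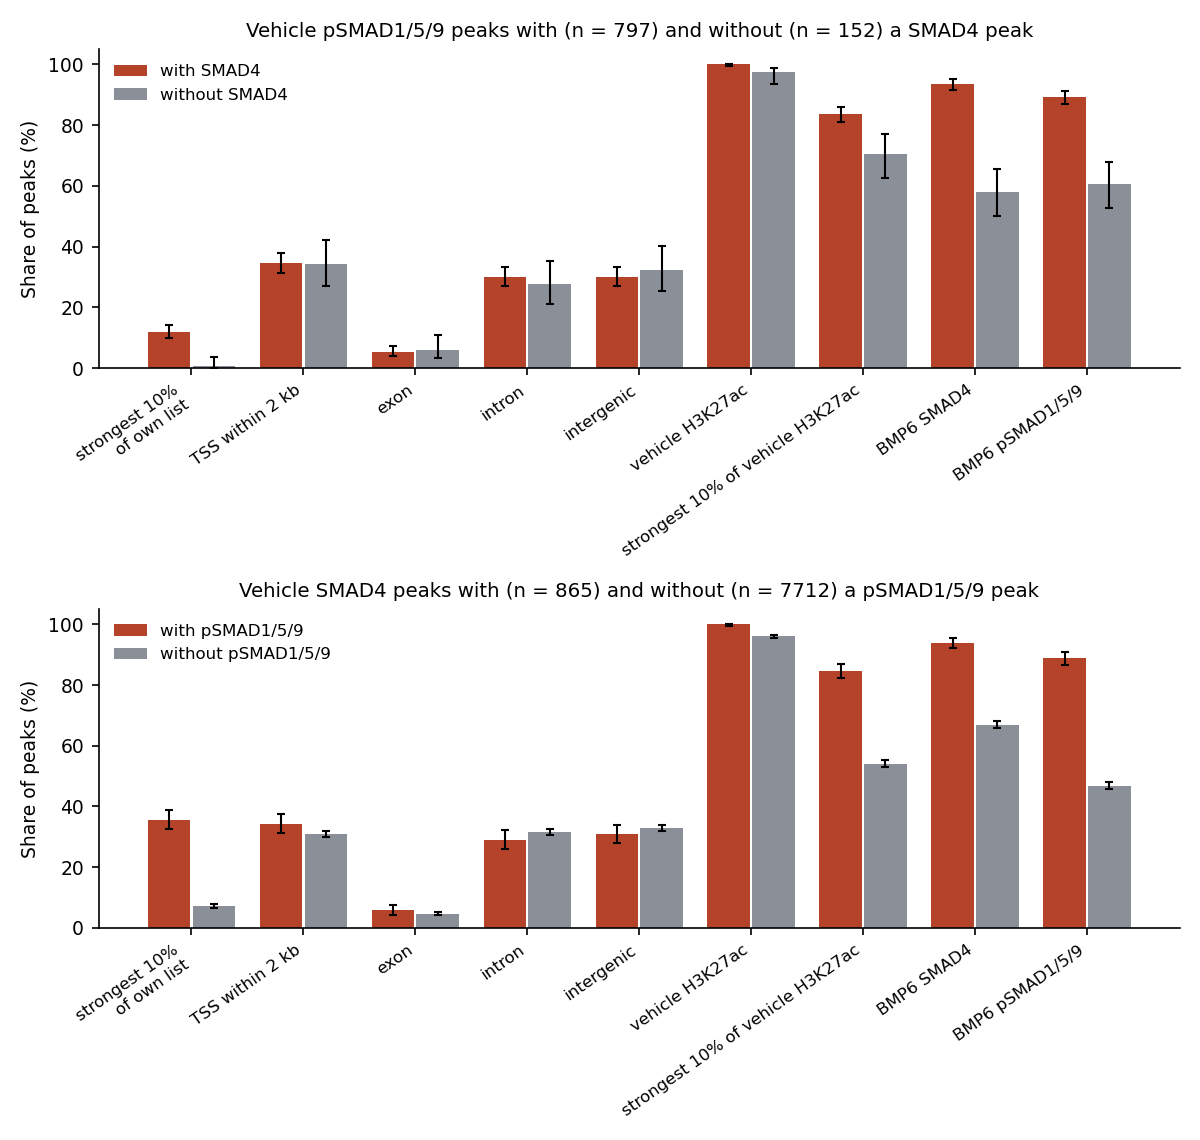
Share of vehicle peaks (y axis, %) in the strongest 10% of their own list, at each location and in 4 other peak sets (x axis). Red bars are peaks with and grey bars peaks without a peak of the other antibody, for pSMAD1/5/9 (top, 797 and 152) and SMAD4 (bottom, 865 and 7712), and error bars are 95% Wilson intervals. Location bars are of similar height, while the BMP6 pSMAD1/5/9 bars stand at 89.3 and 60.5% in the top panel and at 88.9 and 46.9% in the bottom panel. BMP6 SMAD4 bars in the top panel and BMP6 pSMAD1/5/9 bars in the bottom panel read the antibody that defined the groups.

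The motifs differed little between sites with and without the partner. At pSMAD1/5/9 sites, 0 of 8 motifs passed Fisher's exact test after adjustment, and 0 had an unadjusted p under 0.05. The E-box, bound by MYOD1 and other bHLH factors, was in 37.0% of windows with SMAD4 and 29.6% without, with an adjusted p of 0.218. GGCGCC was in 7.40 and 7.89%, GGAGCC in 24.3 and 26.3%, AP-1 in 16.4 and 16.4%, TEAD in 16.7 and 13.8% and RBPJ in 6.78 and 7.24%. The SMAD palindrome was found in 0.627% of windows with SMAD4 and in 0 of 152 without, where a count of 0 allows up to 1.97%. At SMAD4 sites, 1 of 8 motifs passed. The GC box of SP and KLF factors was in 29.4% of windows with pSMAD1/5/9 and 24.4% of those without, an odds ratio of 1.29 with an adjusted p of 0.006. It did not pass in windows of 100 bp, at the stricter IDR, with the overlap of 50%, or within the strongest 10% of SMAD4 peaks. The E-box at SMAD4 sites, in 35.7 and 32.4% of windows with an adjusted p of 0.123, passed with the overlap of 50% and with summit windows, at adjusted p of 0.012 and 0.029.

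Several motifs were more frequent at both kinds of site than in vehicle H3K27ac windows, which was not tested. The E-box was in 21.5% of 67790 H3K27ac windows, GGCGCC in 3.62%, GGAGCC in 17.2%, AP-1 in 10.2% and the GC box in 11.4%, all below the shares in the 4 groups of sites. At pSMAD1/5/9 sites the GC box was in 27.9% of windows with and 26.3% without SMAD4. At SMAD4 sites with and without pSMAD1/5/9, GGCGCC was in 8.21 and 6.87%, GGAGCC in 25.7 and 23.6% and AP-1 in 15.4 and 14.7%. RBPJ, in 8.49% of H3K27ac windows, was below that at both groups of pSMAD1/5/9 sites and close to it at SMAD4 sites, with 8.79 and 8.34%. The palindrome was in 0.260% of H3K27ac windows and in 1.39 and 1.13% of SMAD4 windows with and without pSMAD1/5/9. The GC content moved with these shares, at a median of 50.5% for H3K27ac, 56.5 and 54.5% for pSMAD1/5/9 with and without SMAD4, and 56.5 and 55% for SMAD4 with and without pSMAD1/5/9. The part of base composition in these differences was not tested.

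**Figure D4:**
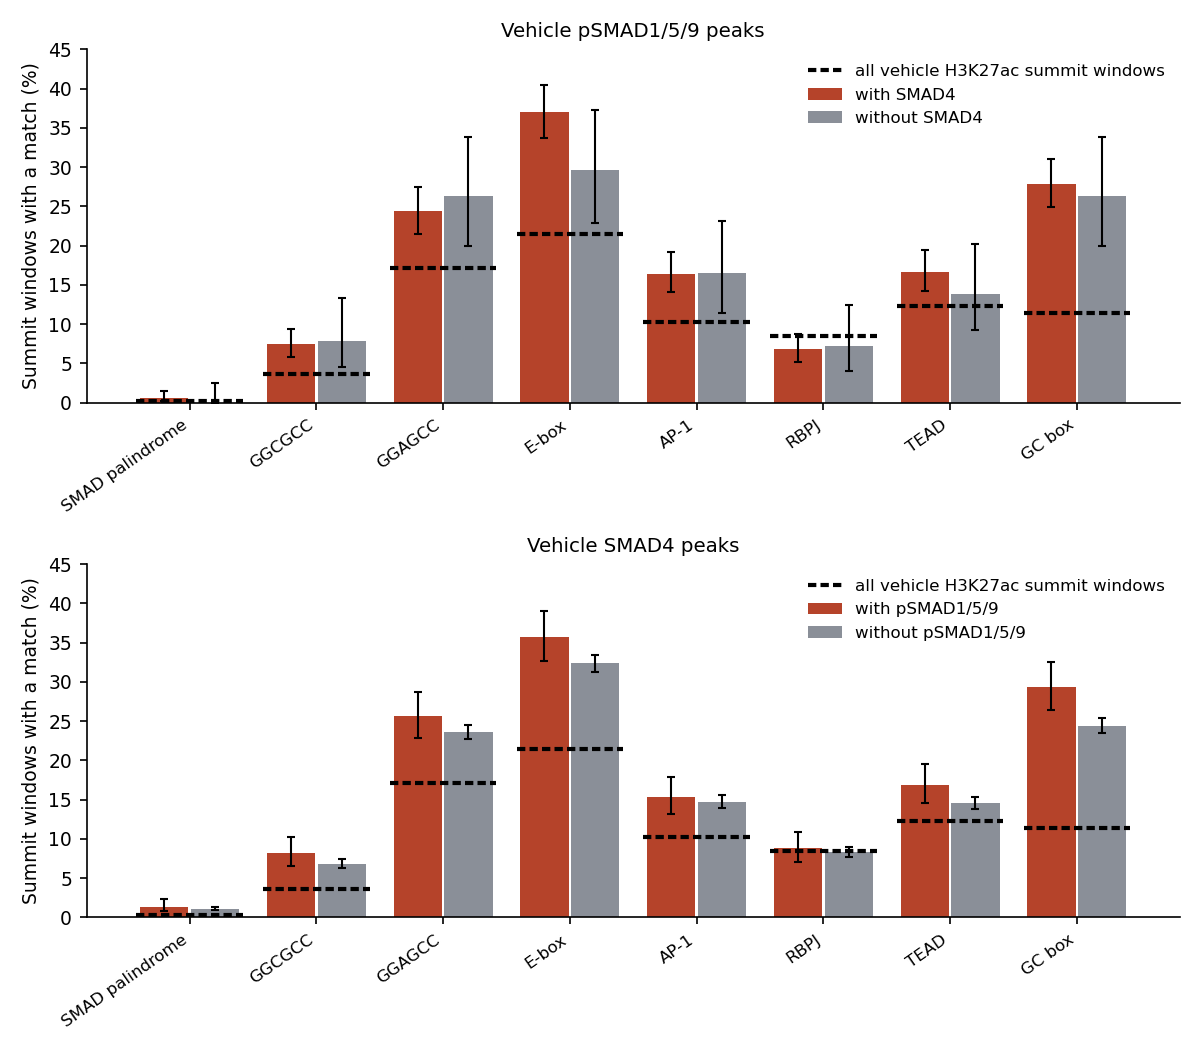
Share of summit windows of 200 bp with at least 1 match (y axis, %) for each of 8 motifs (x axis) at vehicle pSMAD1/5/9 peaks (top) and SMAD4 peaks (bottom). Red bars have and grey bars lack a peak of the other antibody, error bars are 95% Wilson intervals, and dashed lines give the share in all vehicle H3K27ac summit windows. Red and grey bars are close for most motifs, and the dashed lines lie below both bars in both panels for the E-box (21.5%), AP-1, TEAD, the GC box and both SMAD1/5-type elements.

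The sites were next assigned to genes, counting every gene whose body or flanks of 20 kb held a peak. Of 21757 protein-coding genes, 1299 had a vehicle pSMAD1/5/9 site, a background of 5.97%, and 6698 had a SMAD4 site, a background of 30.8%. Both were present at 1218 genes, pSMAD1/5/9 without SMAD4 at 81 and SMAD4 without pSMAD1/5/9 at 5480. A median of 1 pSMAD1/5/9 site was found at genes that had any, and 36 genes had at least 3. The most were at *Pax7*, the transcription factor that defines MuSCs, with 8 pSMAD1/5/9 and 19 SMAD4 peaks. Next were *Cirbp* and its neighbour *Midn*, which share sites, and *Plec*, with 5 pSMAD1/5/9 peaks each. These counts were not corrected for gene length, and longer genes offer more room for peaks. The body of *Pax7* spans chr4:139464373-139560839.

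The 8 sites of *Pax7* all had SMAD4 and were all in both BMP6 lists. The strongest, rank 20, was intergenic at chr4:139442961-139444520, beyond the 3′ end of the gene, with signals of 48814 and 36913. Its summit was 116.8 kb from the start of *Pax7* and closer to the start of another gene. A single site covered the start (rank 78, with 36947 and 26339) and the others lay within the gene, at ranks from 35 to 292. Their SMAD4 partners ranked from 10 to 2050. The strongest of these partners, rank 10, was in an intron with its summit 10002 bp downstream of the start and SMAD4 signals of 52014 and 36920. The order of the sites thus differed between the antibodies.

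Among 20 genes of the myogenic program, 8 had pSMAD1/5/9 and 15 had SMAD4. Beside *Pax7* these were *Myod1* and *Myog*, the factors that commit and differentiate myoblasts, *Mymk*, which encodes the fusogen myomaker, *Mef2a*, *Des*, *Cdh15* and *Itga7*. *Itga7*, the laminin receptor subunit of MuSCs and fibres, had a site of rank 33 with signals of 41823 and 36690, which lay 11817 bp upstream of its start and closer to the start of a neighbour, *Bloc1s1*. The summit at *Myod1* lay 3 bp from its start, at rank 367 with 20959 and 15399, over a SMAD4 peak of rank 1334. At *Myog* the site of rank 328, with 23191 and 14843, lay 283 bp upstream of the start and had no vehicle SMAD4 peak. The only SMAD4 peak counted for *Myog*, rank 3152, lay 12727 bp downstream of the start. The pSMAD1/5/9 site itself overlapped peaks of both BMP6 lists. At *Myf5*, a myogenic determination factor, 4 SMAD4 peaks and 0 pSMAD1/5/9 peaks were counted. The strongest of these ranked only 4421 and lay 13.6 kb upstream of the *Myf5* start, nearest to the start of *Myf6*. The paper reports no binding sites of either factor upstream of *Myf5*, and that difference was not examined.

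Of 16 BMP targets and feedback genes, 7 had pSMAD1/5/9 and 11 had SMAD4. The 7 were *Id2* and *Id3*, inhibitors of bHLH factors, the SMAD corepressors *Ski* and *Skil*, and the transcription factors *Dlx2*, *Atoh8* and *Sox9*. The site at *Id3* had rank 332 with signals of 22619 and 15209, and that at *Id2* rank 641 with 13740 and 11681, both at the start and with SMAD4. *Ski* had 4 sites, of which the strongest, rank 110, lay in an intron with 31729 and 25646, and the weakest, rank 503, had no SMAD4. *Id1*, the best known target of the pathway, had 6 SMAD4 peaks and 0 pSMAD1/5/9 peaks, its strongest SMAD4 peak ranking 630 with its summit 1112 bp upstream of the start and signals of 18198 and 11456. *Smad6* and *Smad7*, the inhibitory SMADs, had SMAD4 at their starts at ranks 30 and 15 and no vehicle pSMAD1/5/9. All 3 of these SMAD4 peaks were in both BMP6 lists. *Id4*, *Smad9*, *Nog*, *Grem1* and *Dlx3* had neither.

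Of 17 receptors and SMADs, 1 had a residual site, which is at the background of 5.97%, and 11 had SMAD4. The 1 was *Smad3*, the TGF-β-type SMAD, at rank 908 of 949 with signals of 10204 and 7628 in an intron. *Bmpr2*, the type II BMP receptor, had a SMAD4 peak at its start at rank 157 and no pSMAD1/5/9.

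Of 16 TGF-β targets, 6 had pSMAD1/5/9 and 13 had SMAD4. These were *Ccn1*, a matricellular protein, *Pmepa1*, a feedback inhibitor of TGF-β signaling, *Acta2*, which encodes smooth muscle actin, *Junb*, *Skil* and *Bhlhe40*. At *Pmepa1* the 3 pSMAD1/5/9 sites ranked 162, 494 and 626 and their SMAD4 partners 41, 62 and 28. At *Acta2* both antibodies were alike in rank number, 177 for pSMAD1/5/9 with 27590 and 21992 and 173 for SMAD4 with 34272 and 11875, though the SMAD4 list is longer. *Ccn1* had 1 site with SMAD4 and 1 without.

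Among 16 Notch pathway genes, 4 had pSMAD1/5/9 and 12 had SMAD4. The receptors *Notch1*, *Notch2* and *Notch3* and the ligand *Jag2* were the 4. The strongest, of rank 73 with signals of 37284 and 26875, was counted for *Jag2* and lay 8281 bp upstream of its start in an exon of another gene. *Notch3* had sites of ranks 429 and 664, *Notch2* 1 of rank 806, all with SMAD4. The *Notch1* site, rank 645 with 15031 and 10302 in an exon, had no SMAD4 in control cells and none in the BMP6 list. The effectors *Hes1*, *Hey1* and *Heyl*, transcriptional repressors, had SMAD4 peaks of best ranks 1867, 473 and 43 and no residual pSMAD1/5/9. All 3 of these peaks had pSMAD1/5/9 in the BMP6 list.

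Immediate early genes had pSMAD1/5/9 at 4 of 14 and SMAD4 at 12, and the 4 were the AP-1 subunits *Fosl2*, *Jun*, *Junb* and *Jund*. *Jund* stood out for a fairly strong pSMAD1/5/9 peak, rank 194 with 27268 and 20450, over a weak SMAD4 peak of rank 7376 with 3428 and 2176. Abundant housekeeping genes, listed as a comparison that is not tied to the pathway, had pSMAD1/5/9 at 8 of 15 and SMAD4 at 11. They included *Gapdh* with 4 sites, none of them at a TSS, *Eno1* with 2, and *Eef1a1*. Theirs was a larger share than in any other list, and all lists but that of receptors and SMADs were above the background of 5.97%. The lists were chosen with earlier results of these data known, and their shares were not tested. That background covers all 21757 protein-coding genes, whether expressed in MuSCs or not. The sites counted for *Tuba1b* and *Ftl1* were nearest to the start of another gene, as were those of ranks 98 and 350 counted for *Gapdh*. Those of *Eef1a1*, *Hspa8* and *Eno1* were at their own start. Those of *Actb* and *Tpt1* were intergenic, 14.18 and 10.05 kb upstream of theirs. In total, 36 of 111 listed genes had pSMAD1/5/9 and 82 had SMAD4, and of 54 pSMAD1/5/9 sites at listed genes 49 had SMAD4 and 5 did not.

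**Figure D5:**
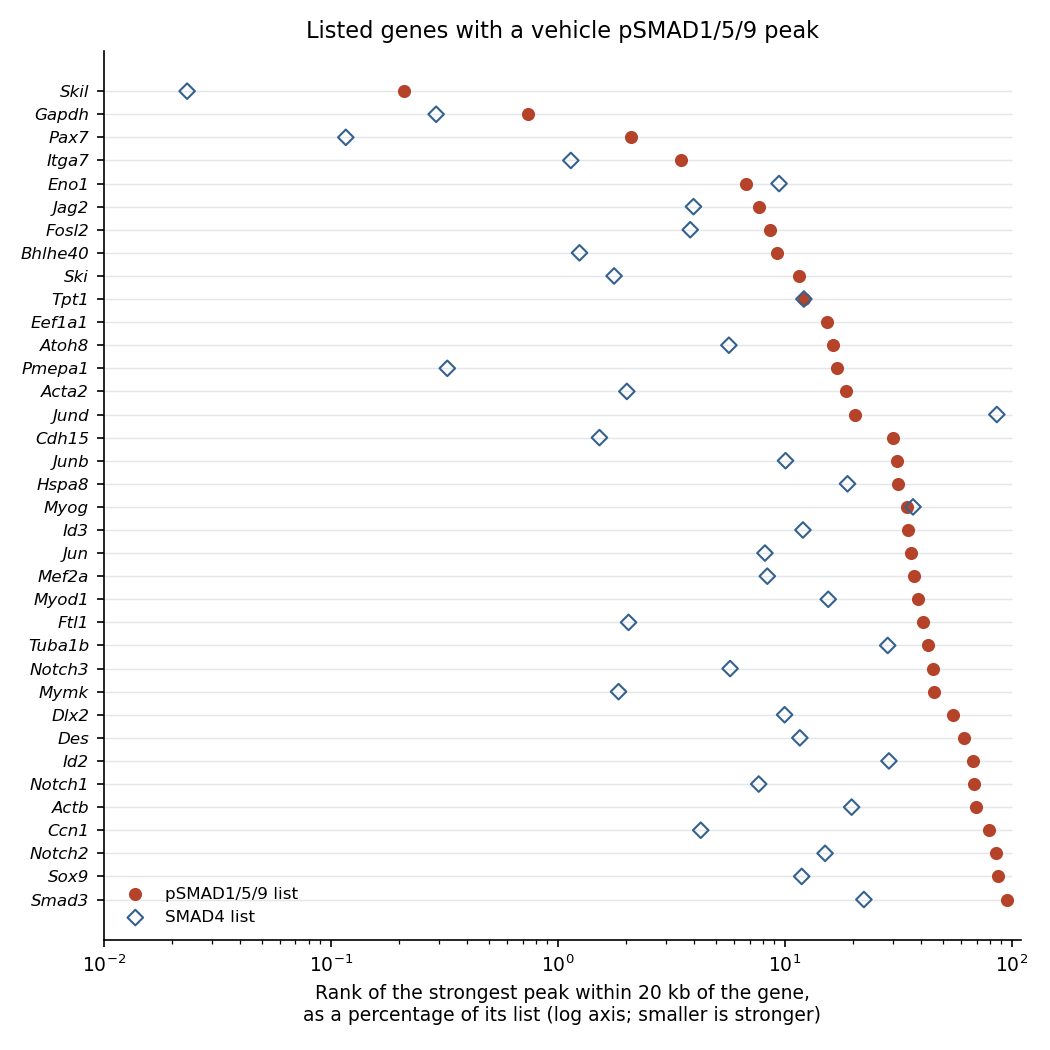
Rank of the strongest vehicle peak within 20 kb of each listed gene that had pSMAD1/5/9, as a percentage of its list (x axis, log scale, smaller is stronger), with 36 genes on the y axis. Red points are the pSMAD1/5/9 list of 949 peaks and open blue diamonds the SMAD4 list of 8577 peaks, which need not be the same site. *Skil* is at the strong end of both lists, *Jund* has its diamond far to the right of its point, and *Eef1a1* has no diamond.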

How the data were processed

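The members, gene lists and motifs were chosen with earlier results of these data known. Values were read from consensus CUT&Tag peak lists, and of 6 lists the vehicle pSMAD1/5/9, SMAD4 and H3K27ac lists and the BMP6 pSMAD1/5/9 and SMAD4 lists entered, with 2 replicates each. Per the methods and the labels, the authors subsampled the libraries of each antibody to the same depth, used Bowtie2 2.5.4 on GRCm39 and SAMtools 1.21, called peaks per replicate with JAMM and combined replicates with IDR by signal, at most 0.05. The deposited signal is a peak caller score whose normalization is not given in the sources used here, and the authors' lists give the IDR as −log10. No read counts were used, the depth is unknown, and 2 replicates limit the precision. Subsampling and the IDR limit decide which weak peaks are listed, so a site without a peak is unlisted, not shown to be unbound.

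Peaks were matched by an overlap of at least 1 bp, ranked by signal, and located with the canonical transcripts of 21757 protein-coding genes of GENCODE vM39, in place of the RefSeq Select set of the methods. A peak at no TSS was called exonic, intronic or intergenic in that order. Groups were compared with two-sided Fisher's exact tests, adjusted by Benjamini-Hochberg over 34 comparisons at 0.05, and shares carry 95% Wilson intervals that cover counting error only. Motifs were counted in 200 bp around the summit. Named genes were the nearest starts of the 10 strongest peaks of each of 3 sets, and the listed genes with a pSMAD1/5/9 site. Other genes (*Id1*, *Smad6*, *Bmpr2*, *Myf5*, *Myf6*, *Hes1*, *Hey1*, *Heyl*, *Midn*, *Bloc1s1*) were named after their values were seen. Sequences were the 3 strongest of each set, passing over chromosome 18 and, as added later, windows on an annotated UTR. Python 3.11.15, numpy 2.4.6, pandas 2.3.3, scipy 1.17.1 and matplotlib 3.10.9 were used, and the scripts were tested on simulated data. Alternatives changed the overlap, the IDR limit, the chromosomes, the rank, the TSS window, the transcripts and the motif window. One restricted to the weaker 50% of pSMAD1/5/9 peaks was added after seeing the data.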

Additional observations from a re-analysis of the deposited data

How the results depend on the processing

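No paired analysis was possible because the replicate columns of the lists carry no replicate number. Ranking by 1 replicate column at a time kept the odds ratio of the strongest 10% between 6.57 and 6.62 for SMAD4 and between 9.91 and 20.2 for pSMAD1/5/9. The rank and BMP6 pSMAD1/5/9 differences kept their direction and stayed past the threshold under each alternative that gave an odds ratio. At SMAD4 sites every alternative keeps the grouping by pSMAD1/5/9, so the BMP6 pSMAD1/5/9 direction there largely follows from the grouping. At the IDR of 0.01, none of 11 pSMAD1/5/9 peaks without SMAD4 was in the strongest 10% (14 of 130 with, adjusted p of 1), and all of both groups were in the BMP6 pSMAD1/5/9 list, so neither could be computed there. At that limit the difference in overlap with any H3K27ac peak and, at pSMAD1/5/9 sites, that in BMP6 SMAD4 (adjusted p of 0.091) no longer passed. For the strongest 10% of H3K27ac, the difference at SMAD4 sites still passed Fisher's exact test there. Its odds ratio was 20.1, with an adjusted p of 2.4e-16.

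The shares with a partner, of pSMAD1/5/9 and of SMAD4 peaks, were 68.8 and 7.61% with an overlap of 50% of both peaks, 71.3 and 7.92% with summit windows, 92.2 and 4.00% at the IDR of 0.01 in both lists (141 and 3575 peaks), and 98.9 and 35.9% in the strongest 10% of each list. With the stricter IDR in 1 list and the partner list whole, they were 97.2% (137 of 141) and 18.6% (665 of 3575). Genes with both antibodies numbered 290 within 1.5 kb upstream and 0.5 kb downstream of the TSS and 188 at the IDR of 0.01. The motifs past the threshold at SMAD4 sites numbered 2 with summit windows and 0 at the IDR of 0.01, in windows of 100 bp and in the strongest 10%. Fewer peaks enter at the IDR of 0.01 and in the strongest 10%, and otherwise the cause was not tested.

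The remaining changes of direction follow, some with odds ratios not near 1, and none but the first passed. The pSMAD1/5/9 odds ratio for the TSS was 0.149 at the IDR of 0.01 (adjusted p of 0.033), 0.725 with the overlap of 50%, 0.994 with summit windows, 0.939 with the TSS window of 1 kb, 0.975 by the midpoint and 0.954 with all basic transcripts. That of SMAD4 was 0.907 at the IDR of 0.01, and 1.20 with all basic transcripts, where it passed. For pSMAD1/5/9 exons it was 1.245 (50%), 1.06 (1 kb), 1.001 (midpoint) and 1.18 (basic transcripts), and for intergenic sequence 1.18 (50%) and 1.56 (IDR). For SMAD4 it was 0.884 for exons by the midpoint and 1.27 for intergenic sequence at the IDR of 0.01. At SMAD4 sites the palindrome turned to 0.9225 (50%), 0.7585 (IDR) and 0.488 (strongest 10%), AP-1 to 0.897 (100 bp), and GGCGCC, RBPJ, TEAD and the GC box to 0.844, 0.917, 0.9365 and 0.925 (IDR). At pSMAD1/5/9 sites GGCGCC turned to 1.11 (summit windows), 1.07 (autosomes), 1.54 (100 bp), 2.16 (TSS peaks left out) and 1.13 (weaker 50%), GGAGCC to 1.14 (50%), 1.06 (summit windows), 1.035 (100 bp) and 1.24 (TSS peaks left out), RBPJ to 1.30 (50%), AP-1 to 1.41 (summit windows), TEAD to 0.8705 (100 bp), and the GC box to 0.923 (50%) and 0.272 (IDR). The odds ratio for the strongest 10% of H3K27ac at pSMAD1/5/9 sites was 0 at the IDR of 0.01, with 127 of 130 against 11 of 11, and it did not pass with the overlap of 50%, with summit windows or in the weaker 50%.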
